A study of Homo sapiens with 47 samples.

Results

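PTBP1, PTBP2 and PTBP3 are the 3 human genes of the polypyrimidine tract binding protein family, and the contacts of crosslinked proteins with their transcripts were counted in 15 site lists. A site was assigned to a gene when its midpoint lay within the RefSeq span of the gene on the strand of the gene. The 3 genes were taken out of 27305 RefSeq genes with a known strand, and they held 2033 of the 2230117 sites in the 15 lists. PTBP1 (gene identifier 5725) spans 14.9 kb on the plus strand of chromosome 19 (hg38, 797452 to 812312). PTBP2 (58155) spans 102 kb on the plus strand of chromosome 1 (96721784 to 96823739). PTBP3 (9991) spans 162 kb on the minus strand of chromosome 9 (112217715 to 112379882).

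PTBP1 is an RNA binding protein that recognises stretches rich in U and C and often represses the splicing of nearby exons. It is known to regulate its own transcript and that of PTBP2 in this way, since skipping of an alternative exon creates a premature stop codon and sends the RNA to nonsense-mediated decay. PTBP2 is the paralog found mainly in neurons, where it takes over as PTBP1 declines, and PTBP3, once called ROD1, was first described in blood cells. RBFOX2 is a splicing regulator with a different binding motif.

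The lists come from uSpyCLIP-seq, in which ultraviolet light links a tagged protein to RNA, the protein is captured through the covalent bond of SpyTag with SpyCatcher, and the RNA fragments are sequenced. The study holds 47 libraries in 20 groups of Lenti-X 293T cells. This line derives from human embryonic kidney and serves to package lentivirus. The cells stably expressed the protein under study, and those of every list used here were irradiated on ice at 400 mJ/cm2. The 2 groups without irradiation were not analysed here. PTBP1 was profiled from 10000000, 100000, 10000 and 1000 cells and RBFOX2 from 10000000 cells, with 2 libraries per group. SpyCatcher1.0 and SpyCatcher2.0 were compared at 20 and 40 µg with 1 library per group, and the labels do not name the captured protein of these 4 groups. The catalytically dead nucleases dPspCas13b and dRfxCas13d were profiled without a guide and with the guides EZH2g1 and EZH2g2, with 3 libraries per group. The cells of the PTBP1 lists thus stably expressed PTBP1 as the captured protein, and the lists do not part RNA of that construct from RNA of the PTBP1 gene itself. The labels do not say whether a line was 1 clone.

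Each group has 1 list of positions without scores or read counts. The depth behind a site is therefore unknown, no list has a replicate, and no test between lists was possible. Intervals in parentheses are exact 95% intervals (Poisson for numbers, Clopper-Pearson for shares) and cover counting error only. A high number of sites in a gene can come from more RNA or from more binding per RNA, and these cannot be told apart here. The sites of the PTBP1, RBFOX2 and SpyCatcher lists are short, with a median width of 5 to 6 nt, and are called clusters. Those of the 6 Cas13 lists used here had a median width of 124 to 177 nt. The 3 listed markers of this epithelial line with a known strand, KRT8, VIM and CDH2, held 19, 26 and 271 clusters at 10000000 cells. The blood marker PTPRC and the liver marker ALB held 0 clusters in every list. The neuronal marker SYT1 held 235 clusters and RBFOX3 held 0 at 10000000 cells, so clusters alone did not set a neuronal gene apart. SYT1 spans 588 kb and had 0.400 clusters per kb, against 0.361 in KRT8, 2.78 in VIM and 1.11 in CDH2. Only 2 of 4 listed neuronal, 1 of 3 blood and 1 of 2 liver markers have a known strand.

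At 10000000 cells PTBP1 clusters lay in all 3 transcripts of the family. Many other genes had them too, since 11304 genes held a cluster in that list and 35.1% of all genes held at least 3. PTBP2 held 411 clusters (372 to 453), PTBP3 210 (183 to 240) and PTBP1 itself 79 (62.5 to 98.5). By number of clusters PTBP2 ranked at place 222 among the genes, PTBP3 at 947 and PTBP1 at 3199. Per kb of gene the order was different, because PTBP1 is the shortest of the 3. PTBP1 had 5.32 clusters per kb, PTBP2 4.03 and PTBP3 1.29. These densities were above those of 95.3%, 90.0% and 36.4% of the 6710 genes with at least 20 clusters in that list. The density in PTBP1 was 4.11 times that in PTBP3 (3.13 to 5.34), and the density in PTBP2 was 3.11 times that in PTBP3 (2.63 to 3.69). PTBP2 had 0.758 times the density of PTBP1 (0.595 to 0.977), a difference just outside counting error. This order did not hold at lower input, where the 100000-cell list gave a ratio of PTBP2 to PTBP1 of 1.10 (0.825 to 1.50) and the 10000-cell list one of 1.18 (0.775 to 1.86). The span of PTBP3 begins 46.9 kb before its listed start site and held 5 clusters there. Measured from the start site the ratios to PTBP3 were 2.99 for PTBP1 and 2.27 for PTBP2. Counted as nucleotides covered instead of as clusters, they were 5.60 and 4.74.

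No cluster or Cas13 site of the 15 lists lay on the opposite strand of any of the 3 genes. None lay in the windows from 250 nt before to 50 nt after their 4 listed start sites. MIR4745, a microRNA hairpin inside the PTBP1 span (804940 to 805001), held none either.

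The 4 PTBP1 inputs address how far binding can still be mapped as cells become few, and the 3 transcripts differed in this. PTBP2 held 411, 394, 202 and 66 clusters at 10000000, 100000, 10000 and 1000 cells. At the lowest input the number in its transcript was thus 16.1% of that at the highest, while the whole list had 3.21%. PTBP2 moved from place 222 to places 189, 68 and 17 among all genes. PTBP3 held 210, 206, 75 and 3 clusters, and PTBP1 79, 52, 25 and 0. At 1000 cells PTBP2 thus carried 66 of the 69 clusters found in the family.

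The share of a list that falls in a gene takes the shrinking lists into account. PTBP2 took 42.6, 51.2, 81.4 and 214 of every 100000 clusters at the 4 inputs in the same order. Its share at 1000 cells was 5.01 times that at 10000000 cells (3.80 to 6.51). Counted as covered nucleotides it was 3.13 times. Of 6710 genes with at least 20 clusters at 10000000 cells, 13.4% had a share at least 2-fold higher at 1000 cells, and 97.0% had a smaller fold than PTBP2. The median fold of these genes was 0.487. At 10000 cells the share of PTBP2 was 1.91 times that at 10000000 cells (1.61 to 2.27), under the 2-fold mark that 11.2% of genes passed. At 100000 cells it was 1.20 times (1.04 to 1.38), and 0.745% of genes passed the mark.

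At 100000 cells the folds of PTBP1 and PTBP3 were as near to 1 as that of PTBP2, and at 10000 cells they were nearer. The share of PTBP1 was 0.825 times (0.570 to 1.19) the 10000000-cell value at 100000 cells and 1.23 times (0.751 to 1.95) at 10000 cells. At an equal share the 1000-cell list would hold 2.53 clusters in PTBP1, so its count of 0 was no detectable difference. That count allows a share of up to 9.71 per 100000 by the limit of 3 counts, or 11.9 by the exact interval. PTBP3 gave 1.23 times (1.01 to 1.50) at 100000 cells and 1.39 times (1.05 to 1.81) at 10000 cells. Its 3 clusters at 1000 cells gave 0.446 times (0.0912 to 1.32), where 6.73 would be found at an equal share.

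**Figure D1:**
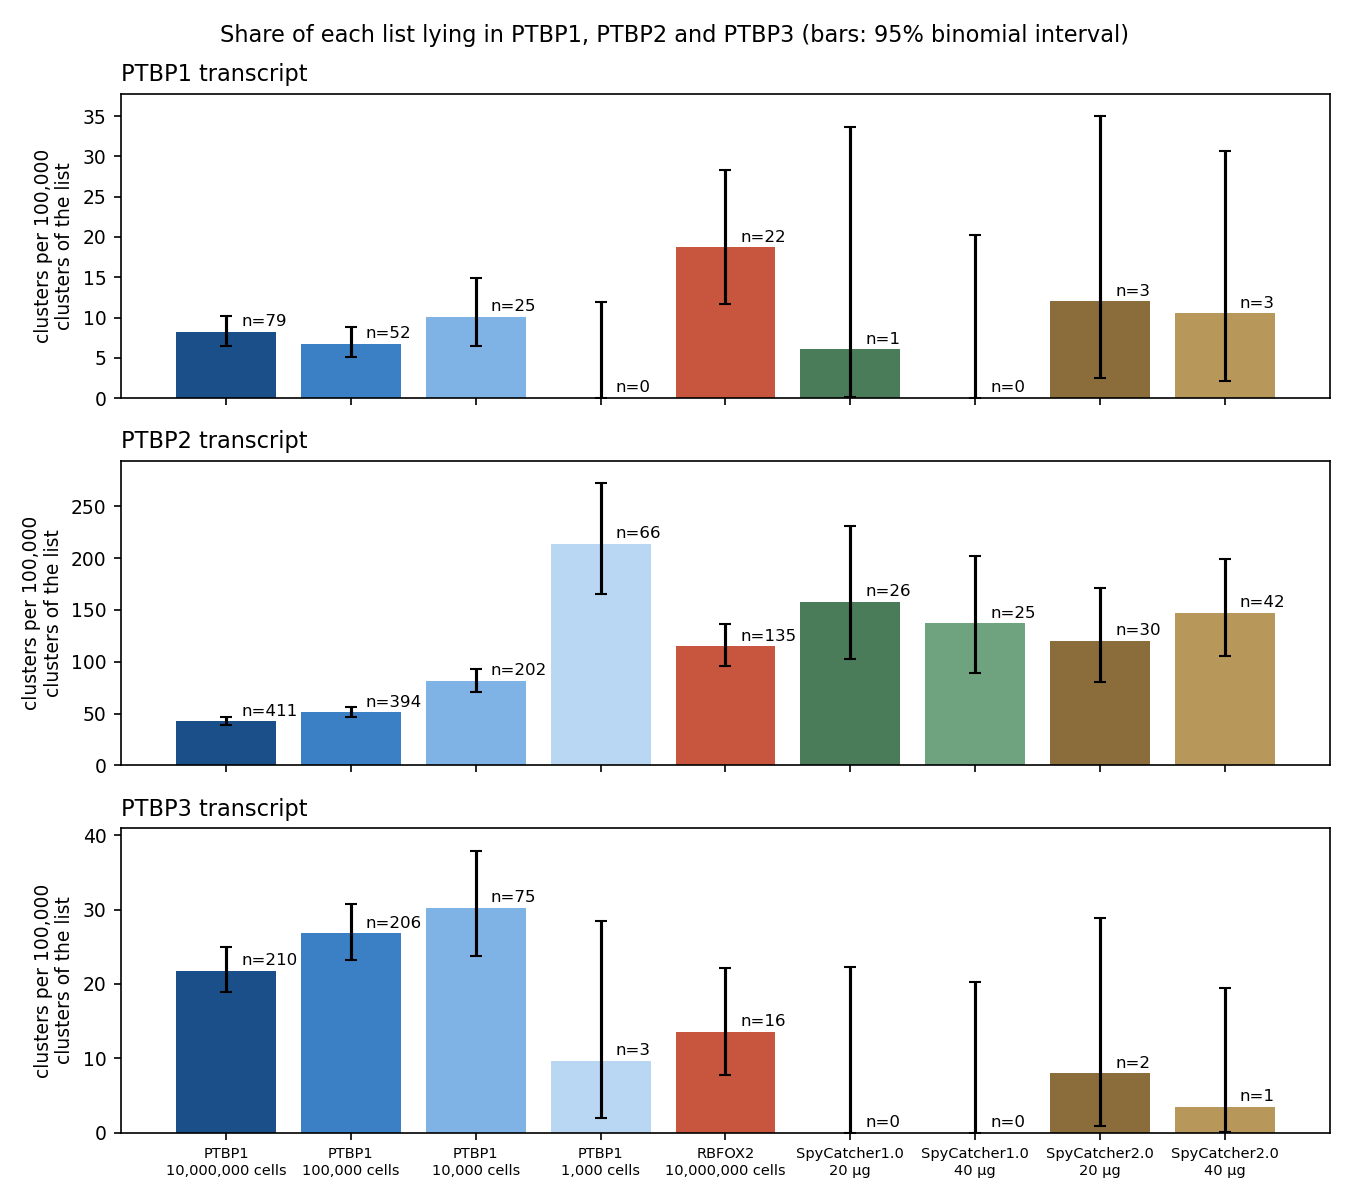
Clusters in each gene per 100000 clusters of the list, for 9 lists, with exact 95% binomial intervals and the number of clusters above each bar. Each panel has its own scale. PTBP2 goes from 42.6 in the 10000000-cell PTBP1 list to 214 in the 1000-cell list, while PTBP1 and PTBP3 reach at most 18.7 and 30.2 in any list.

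RBFOX2 clusters fell in the same 3 transcripts, with 22 in PTBP1, 135 in PTBP2 and 16 in PTBP3. In the RBFOX2 list 7015 genes held a cluster, and 17.1% of all genes held at least 3. The densities in the 3 genes were 1.48, 1.32 and 0.0987 clusters per kb. These were above those of 95.7%, 94.8% and 47.4% of the 6710 genes. PTBP1 thus had 15.0 times (7.53 to 30.6) and PTBP2 13.4 times (7.97 to 24.2) the density of PTBP3. The densities of PTBP1 and PTBP2 differed by less than counting error (ratio of PTBP2 to PTBP1 0.894, 0.567 to 1.47). Against the PTBP1 list of the same cell number, the share of PTBP2 was 2.69 times (2.20 to 3.28) and that of PTBP1 2.28 times (1.36 to 3.70). That of PTBP3 was 0.625 times (0.351 to 1.04), near the median of 0.612 over the 6710 genes. A share at least 2-fold higher was found in 13.4% of genes and one at least 2-fold lower in 43.8%. In covered nucleotides the folds of PTBP2 and PTBP1 were 1.92 and 1.56, below 2. The RBFOX2 list holds 117590 clusters and the 10000000-cell PTBP1 list 964422. The share of PTBP2 was 81.4 per 100000 in the 10000-cell list of 248168 clusters and 214 in the 1000-cell list of 30911. In the RBFOX2 list it was 115, between these. PTBP1 took 18.7 there, against 10.1 and 0. Whether the captured protein or the length of the list sets these folds was not tested. No list without a captured protein was analysed here, so clusters that any capture would give were not measured apart.

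**Figure D2:**
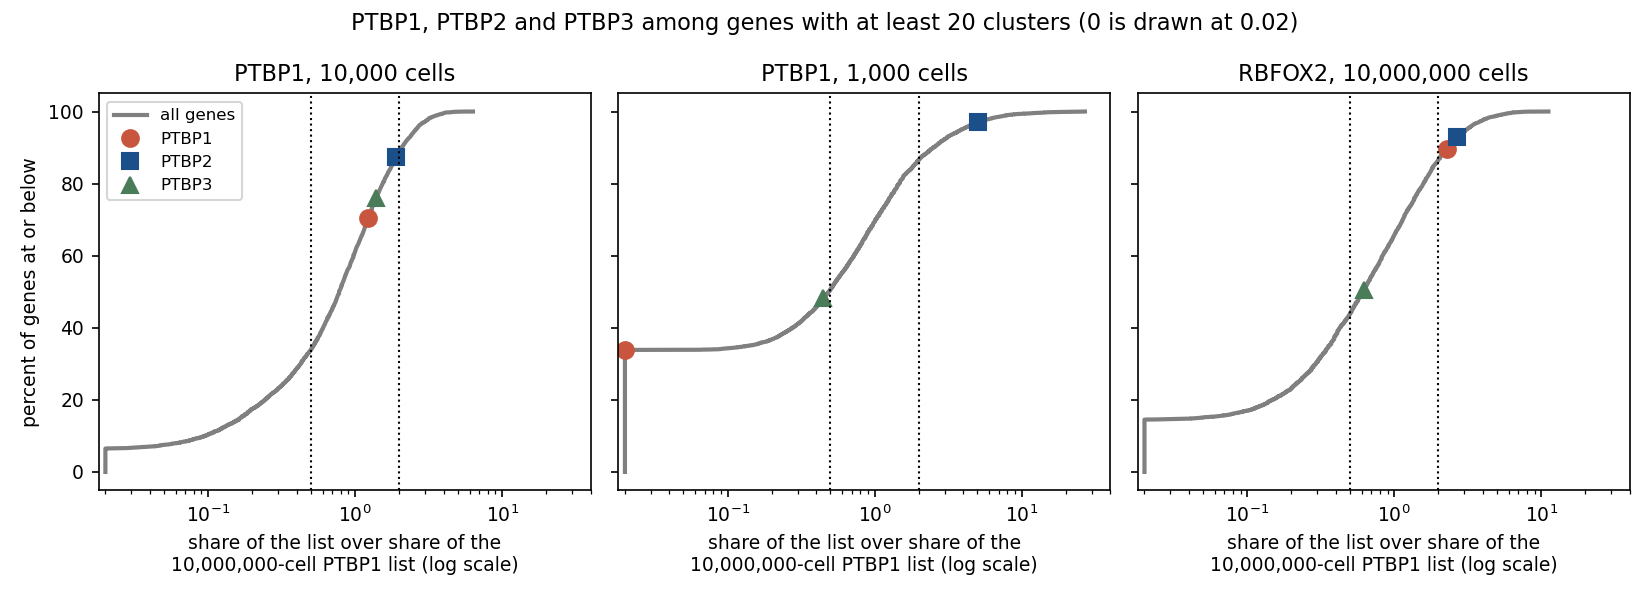
Share of the 10000-cell, 1000-cell and RBFOX2 lists in a gene over its share of the 10000000-cell PTBP1 list (horizontal log scale), against the percentage of the 6710 genes at or below that fold. The grey line is all genes, the symbols are the 3 family members, and dotted lines mark 2-fold. At 1000 cells PTBP2 stands at 5.01, and PTBP1, with 0 clusters, is drawn at the left edge with the other genes at 0.

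The 4 SpyCatcher lists were made to compare the versions of the capture reagent. PTBP2 held 26 and 25 clusters with SpyCatcher1.0 at 20 and 40 µg, and 30 and 42 with SpyCatcher2.0. Its shares of these lists were 3.70, 3.22, 2.81 and 3.45 times that of the 10000000-cell PTBP1 list. A share at least 2-fold higher was found in 16.5%, 16.3%, 15.5% and 15.0% of genes, and one at least 2-fold lower in 56.4%, 54.6%, 50.0% and 49.5%. Over both amounts, SpyCatcher2.0 gave 72 clusters in PTBP2 and SpyCatcher1.0 gave 51, a ratio of 1.41 (0.973 to 2.06), and the whole lists had a ratio of 1.54. PTBP2 thus gave no detectable difference between the versions beyond the length of the lists. PTBP1 held 1, 0, 3 and 3 clusters in the 4 lists and PTBP3 held 0, 0, 2 and 1. At their 10000000-cell shares PTBP1 would hold 7.24 and PTBP3 19.2 clusters over the 4 lists, against 7 and 3 found. PTBP2 would hold 37.7, against 123 found. The SpyCatcher lists are short, with 16507 to 28586 clusters. The shares of PTBP2 in them were 158, 137, 120 and 147 per 100000. These were below the 214 in the 1000-cell PTBP1 list, which holds 30911 clusters.

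PTBP2 had a cluster in each of the 9 lists of clusters, as did 29.0% of the 6710 genes. PTBP1 and PTBP3 each had one in 7 lists.

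Clusters were unevenly placed along PTBP2. Of its 102 windows of 1 kb, 55 held a cluster at 10000000 cells and 63 held one in any of the 9 lists. The longest stretch without a cluster in any of the 9 lists was 13.3 kb (96749560 to 96762813). No list placed a cluster in the last 2000 nt. With the gene divided into 10 equal parts from its 5′ end, the 10000000-cell list placed 40, 14, 34, 0, 12, 110, 73, 10, 89 and 29 clusters. Parts 6, 7 and 9 thus stood out.

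In 5 windows clusters of all 9 lists were found, and these began 58, 59, 68, 84 and 88 kb from the 5′ edge. The window at 58 kb (96779784 to 96780783) held 20, 29, 24 and 12 clusters at the 4 PTBP1 inputs in falling order, 24 of RBFOX2, and 8, 6, 10 and 11 in the SpyCatcher lists. The window at 84 kb (96805784 to 96806783) held 27, 27, 25 and 12 clusters at the PTBP1 inputs, 18 of RBFOX2, and 6, 4, 6 and 7 in the SpyCatcher lists. Both windows thus held similar numbers at 10000000 and 10000 cells, although the list as a whole shrank to 25.7%. Similar numbers did not mean similar covered length. In the 84-kb window 1 cluster of 199 nt at 10000000 cells met 9 clusters at 10000 cells, which covered 138 nt of it. In the 58-kb window 1 cluster of 196 nt met 5, which covered 93 nt. The window at 61 kb had the most clusters at 10000000 cells and few at the lowest input. It held 31, 25, 12 and 1 at the PTBP1 inputs, 7 of RBFOX2, and 1, 0, 0 and 1 in the SpyCatcher lists.

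These 5 windows were chosen for having clusters in every list, which by itself raises their share in the short lists, so the shares are given as a description. They held 27.5%, 29.7%, 47.0% and 57.6% of the PTBP2 clusters at the 4 PTBP1 inputs in falling order. They held 51.1% of those of RBFOX2 and 68.0% to 83.3% of those in the SpyCatcher lists. The 2 kb from 58 to 60 kb and the 1 kb from 84 kb, 2.94% of the gene, were singled out after their values were seen. They held 18.0% (14.4 to 22.1) of the clusters at 10000000 cells and 47.0% (34.6 to 59.7) at 1000 cells. They held 40.7% (32.4 to 49.5) of the RBFOX2 clusters and 56.0% to 66.7% of those in the 4 SpyCatcher lists.

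**Figure D3:**
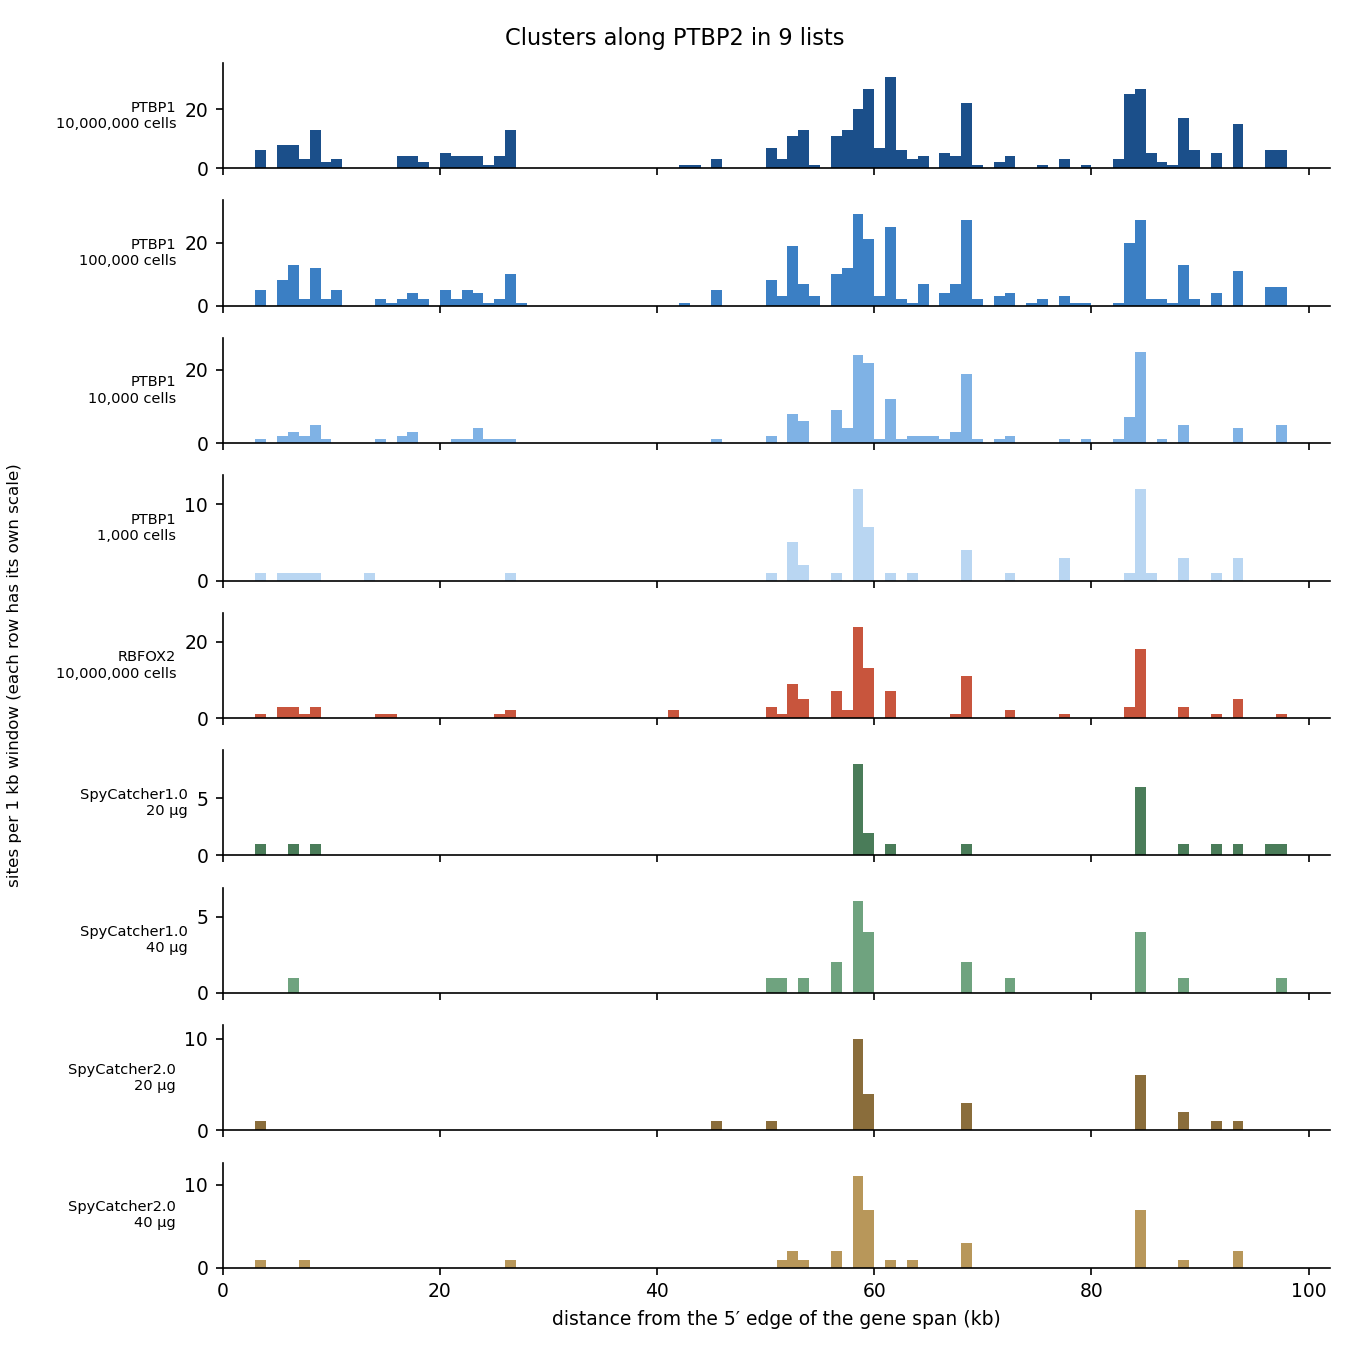
Number of clusters per 1-kb window along PTBP2, as distance from the 5′ edge of its span, in 9 lists with a scale for each. The windows at 58 and 84 kb hold clusters in all 9 lists, with 12 each at 1000 cells, and the window at 61 kb, with 31 clusters at 10000000 cells, holds 1 at 1000 cells.

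The same places held the widest clusters. Overlapping clusters of the 9 lists were joined into 519 regions of PTBP2, of which 267 had clusters of 1 list and 6 had clusters of all 9. All 4 PTBP1 inputs met in 31 regions. The 2 regions with most clusters, 40 each, were 96780555 to 96780765 and 96806099 to 96806298. The widest PTBP2 cluster at 10000000 cells was 199 nt long (96806100 to 96806298), a width that 136 of the 964422 clusters of that list reached. Over the same 199 nt the 100000-, 10000- and 1000-cell lists placed 4, 9 and 7 clusters that covered 187, 138 and 43 nt. RBFOX2 placed 7 clusters there that covered 84 nt. A single wide cluster at the highest input thus lay over several short ones in the other lists. How far this bears on the numbers of clusters was not tested. Clusters of at least 50 nt made up 3.89% of those in PTBP2, 3.80% in PTBP1, 0.476% in PTBP3 and 0.806% of the whole list. The mean width in PTBP2, 13.5 nt, was above that of 95.8% of the 6710 genes, and that in PTBP1, 12.1 nt, above 92.5%.

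PTBP1 contacts on the PTBP1 transcript lay mostly in its 3′ portion. With the gene divided into 10 equal parts, parts 1 to 4 held 0 of the 79 clusters at 10000000 cells, part 7 held 20 and part 10 held 37. At 100000 cells parts 1 to 4 held 0, 3, 2 and 1 of the 52 clusters, part 7 held 17 and part 10 held 10. The last 2000 nt held 42 clusters, or 53.2% (41.6 to 64.5), where the last 2000 nt of all protein-coding genes held 7.70% of their clusters in that list. PTBP1 is short, and 2000 nt are a larger part of it than of most genes. At 100000 cells the last 2000 nt held 13 of 52 clusters (14.0% to 38.9%), at 10000 cells 8 of 25, and in the RBFOX2 list 8 of 22.

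The number of clusters differed between 10000000 and 100000 cells mainly in this end of PTBP1. The last 2000 nt had 42 and 13 clusters, so that the number at 100000 cells was 31.0% of that at 10000000, while the rest of the gene had 37 and 39. Over all protein-coding genes the number at 100000 cells was 46.5% in the last 2000 nt and 82.8% in the rest. Among 931 genes with at least 20 clusters in their last 2000 nt at 10000000 cells, the median was 44.8%, and 26.4% of genes had a lower value than PTBP1. PTBP3 had 20 and 14 clusters in its last 2000 nt, and 190 and 192 in the rest.

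The 0.5-kb window of PTBP1 from 10.0 kb after its 5′ edge (807452 to 807951) recurred in most lists. It was singled out after its values were seen. It held 16, 12 and 6 clusters at 10000000, 100000 and 10000 cells, 7 of RBFOX2, and 1, 0, 2 and 3 in the SpyCatcher lists. Of the 7 SpyCatcher clusters in PTBP1, 6 lay in it. Other windows also recurred. The one at 9.0 kb held 6, 6 and 3 clusters at these inputs, 2 of RBFOX2 and 1 of SpyCatcher2.0 at 20 µg. The one at 14.0 kb held 15, 7 and 5, and 5 of RBFOX2. Joined over the 9 lists, PTBP1 had 95 regions. The most widely shared was 807528 to 807612, with 14 clusters of 7 lists, absent from the 1000-cell and the SpyCatcher1.0 40 µg list. Its cluster at 10000000 cells was 71 nt long. Regions of 5 lists lay at 807812 to 807839 and 806725 to 806741, and 8 regions had clusters of 4 lists. Of these, 811323 to 811347, 811612 to 811647, 811835 to 811909 and 811914 to 811964 lay in the last 1000 nt of the gene. At 811835 to 811909 a 75-nt cluster at 10000000 cells met 4, 2 and 1 clusters of the 100000-cell, 10000-cell and RBFOX2 lists. It met none of the SpyCatcher lists.

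**Figure D4:**
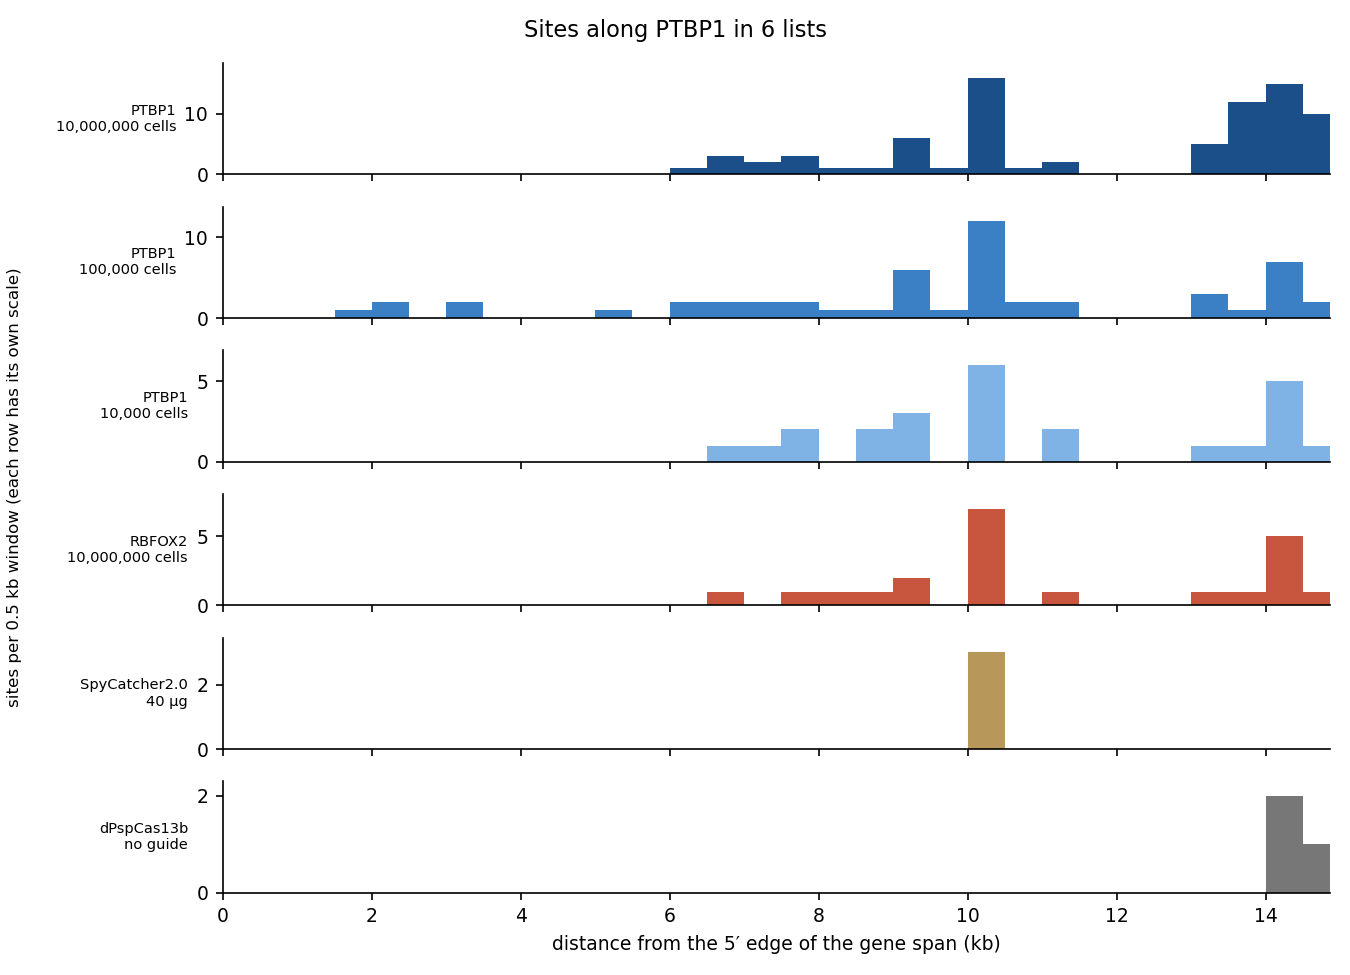
Number of sites per 0.5-kb window along PTBP1, as distance from the 5′ edge of its span, in 6 lists with a scale for each; the last window is cut by the end of the gene. The window at 10.0 kb holds clusters in all 5 lists of clusters shown, and the dPspCas13b sites lie in the last 2 windows.

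PTBP3 clusters were spread thinly. At 10000000 cells 47 of its 163 windows held a cluster, no window held more than 14, and parts 9 and 10 of 10 held 66 and 60 of the 210 clusters. No window had clusters of all 9 lists. Of 331 joined regions 223 came from 1 list, 1 was met by all 4 PTBP1 inputs, and none was met by more than 5 lists. That 1 region (112239719 to 112239767) also held an RBFOX2 cluster. The widest PTBP3 cluster, 90 nt (112231848 to 112231937), met 3 clusters each of the 100000-cell, 10000-cell and RBFOX2 lists and none of the 1000-cell and SpyCatcher lists.

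By an overlap of at least 1 nt, the 100000- and 10000-cell lists met the 10000000-cell list more often in PTBP1 and PTBP2 than in PTBP3. Of the clusters at 100000 cells, 71.2% (56.9 to 82.9) in PTBP1, 73.4% (68.7 to 77.7) in PTBP2 and 48.5% (41.5 to 55.6) in PTBP3 overlapped a cluster of the 10000000-cell list, against 55.8% of the whole list. In the other direction 40.5%, 60.8% and 41.4% of the clusters at 10000000 cells were met, against 41.3% of the whole list. At 10000 cells all 25 clusters in PTBP1 overlapped, 86.1% (80.6 to 90.6) did in PTBP2 and 68.0% (56.2 to 78.3) in PTBP3, against 75.3%. At 1000 cells 60 of 66 clusters in PTBP2 overlapped (90.9%, 81.3 to 96.6), against 71.5%. With midpoints required to lie within 10 nt, the shares at 100000 cells were 67.3% in PTBP1, 65.5% in PTBP2 and 53.4% in PTBP3. By that rule the difference between PTBP2 and PTBP3 was small at 10000 cells (62.9% and 60.0%) and turned at 1000 cells (59.1% and 66.7%, the latter of 3 clusters). The overlap shares also depend on how much of a gene is covered, and the 10000000-cell clusters covered 6.41% of PTBP1, 5.43% of PTBP2 and 1.14% of PTBP3.

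RBFOX2 clusters in the family lay mostly on PTBP1 clusters. Of 22 in PTBP1 19 overlapped the 10000000-cell PTBP1 list, of 135 in PTBP2 124, and of 16 in PTBP3 13. These shares of 86.4% (65.1 to 97.1), 91.9% (85.9 to 95.9) and 81.2% (54.4 to 96.0) compare with 81.6% of all RBFOX2 clusters. RBFOX2 in turn met 16.5%, 16.8% and 5.24% of the PTBP1 clusters at 10000000 cells, against 7.92% of that list. It met 63.6% (50.9 to 75.1) of the PTBP2 clusters left at 1000 cells, against 43.4% of that list. Only 6 of the 519 PTBP2 regions had RBFOX2 clusters and none of any PTBP1 input. With midpoints required to lie within 10 nt, the RBFOX2 shares were 59.1% in PTBP1, 55.6% in PTBP2 and 68.8% in PTBP3.

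**Figure D5:**
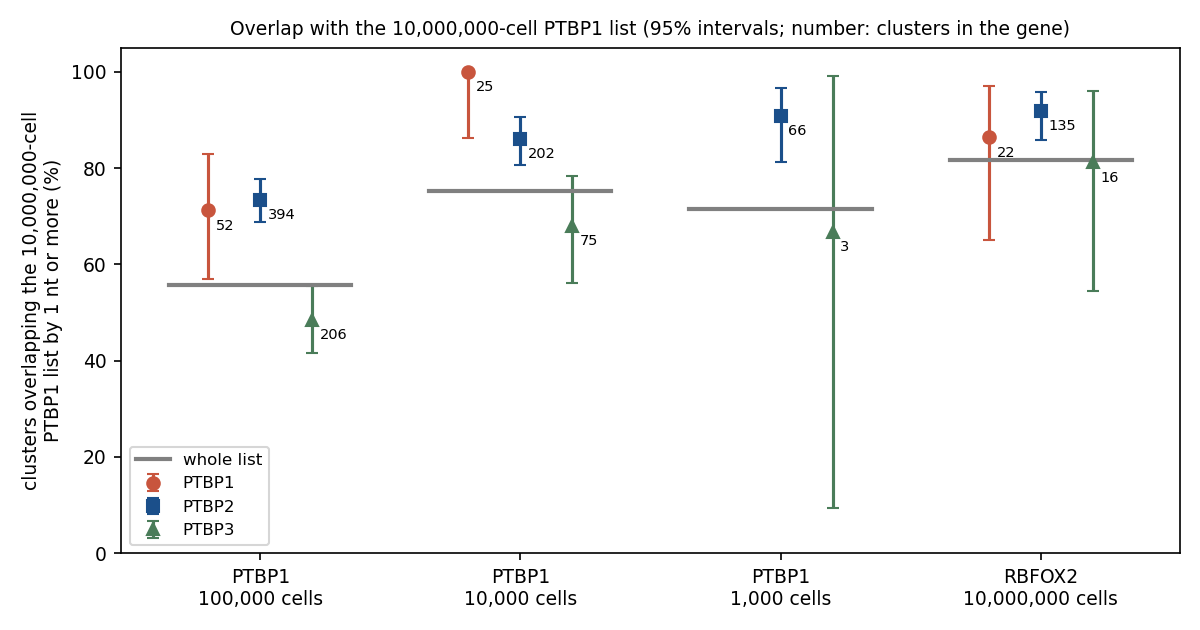
Percentage of the clusters of 4 lists in each gene that overlap a 10000000-cell PTBP1 cluster by at least 1 nt, with exact 95% intervals and the number of clusters beside each symbol. Grey lines give the whole list. PTBP2 lies above the whole-list share in all 4 lists, from 73.4% to 91.9%, and PTBP1 has no cluster at 1000 cells.

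Cas13 proteins bind RNA through a guide, and their lists address where they contact RNA with and without one. Of the 6 Cas13 lists used here, 4 had no site in the family. The dPspCas13b list without guide had 3 sites in PTBP1, at 811563 to 811686, 811885 to 812000 and 811968 to 812098. At least 3 sites were found in 1.75% of genes in that list. Their midpoints lay 687.5, 369.5 and 279.0 nt from the 3′ end of the gene, and the latter 2 overlap one another. They met 3, 4 and 5 clusters of the 10000000-cell PTBP1 list and 1, 3 and 1 clusters of RBFOX2. They lie in the last 2000 nt, which held 42 of the 79 PTBP1 clusters at 10000000 cells, and over the whole dPspCas13b list 50.6% of sites met such a cluster. The dRfxCas13d list with EZH2g1 had 1 site in PTBP2 (96777552 to 96777707), which met no cluster of any list. The lists of dPspCas13b with EZH2g1 and EZH2g2 hold 59 and 625 sites in all. Those of dRfxCas13d without guide and with EZH2g2 hold 2808 and 1994. A count of 0 in a single gene thus says little in these 4 lists.

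Other transcripts were read from a list of 12 partners and co-regulators. Of these 10 have a known strand and 8 held clusters at 10000000 cells. This list and that of decay factors below were chosen with earlier results of these data known. Their comparison with all genes is therefore a description only. At 1000 cells 4 of the 8 had a share at least 2-fold higher than at 10000000 cells and 1 had a share at least 2-fold lower, against 13.4% and 50.6% of genes. Their median fold was 2.98, against 0.487. KHSRP, a splicing and decay factor, held 68, 60, 67 and 31 clusters at the 4 inputs in falling order and 48 of RBFOX2. MATR3, a nuclear RNA binding protein that interacts with PTBP1, held 254, 185, 131 and 37, and 106 of RBFOX2. CELF1, a splicing regulator of another family, held 376, 368, 241 and 59, and 207 of RBFOX2. HNRNPK, which binds C-rich RNA, held 67, 72, 66 and 13, and 39 of RBFOX2. HNRNPLL, a splicing regulator of lymphocytes, held 60, 60, 8 and 0. The shares of KHSRP, HNRNPK, CELF1 and MATR3 at 1000 cells were 14.2, 6.05, 4.90 and 4.54 times those at 10000000 cells. That of PTBP2 was 5.01 times, on more clusters than any of them. For NOVA1, MBNL1 and RAVER2, also on the list, the folds were 1.42, 1.21 and 1.12.

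Of 8 nonsense-mediated decay factors, which remove transcripts with premature stop codons, 7 have a known strand and all 7 held clusters at 10000000 cells. At 1000 cells none had a share at least 2-fold higher and 3 had a share at least 2-fold lower, with a median fold of 0.576. Over all genes 13.4% were higher and 50.6% lower, with a median of 0.487, so these counts were near the background. In the RBFOX2 list 1 was at least 2-fold higher and 2 were at least 2-fold lower, against 13.4% and 43.8% of genes. UPF1, the central helicase of the pathway, held 49 PTBP1 clusters at 10000000 cells and 1 of RBFOX2. UPF2, its partner, held 270 and 2, and these were the 2 lower ones. UPF3A, another factor of the pathway, held 38 and 11, with a fold of 2.37. The folds of the other 4, UPF3B, SMG1, SMG5 and SMG6, were 1.64, 1.51, 1.13 and 0.817. With SpyCatcher2.0 at 40 µg 3 of the 7 were at least 2-fold higher and 1 was lower, against 15.0% and 49.5% of genes. With SpyCatcher1.0 at 20 and 40 µg and SpyCatcher2.0 at 20 µg 0 were higher, and 5, 2 and 3 were lower. In these 3 lists 56.4%, 54.6% and 50.0% of genes were at least 2-fold lower.

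The genes with the most similar pattern over the other 8 lists were named by the distance between log2 shares relative to the 10000000-cell list, among 4530 genes with at least 50 clusters. For PTBP2 these were ENAH (distance 0.523), ZFR (0.531) and ADAT2 (0.545). ENAH held 695, 645, 307 and 95 clusters at the PTBP1 inputs and 297 of RBFOX2. For PTBP1 they were CCNT2 (0.970), CXorf38 (1.10) and COMMD2 (1.52), each with 0 clusters at 1000 cells. For PTBP3 they were CYP51A1 (1.38), EFL1 (1.40) and ST7L (1.43), each with 0 clusters in both SpyCatcher1.0 lists. Small numbers weigh on these distances, most of all for PTBP1 and PTBP3. The names also depend on the measure, most of all for PTBP2. By Pearson correlation 0 of its 3 genes were kept, against 2 for PTBP1 and 1 for PTBP3.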

How the data were processed

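The deposited lists hold positions only, and the file columns with name and score are empty, so the unit of analysis was the site (other than a measured value). Per the submitters' processing notes, the authors used Trim Galore 0.0.6 and STAR 2.7.9a with hg38. The caller, its thresholds and any pooling of libraries are not named in those notes or the labels. Each list is tied to the first library of its group. Lists of a further guide are not reported here, which leaves 15 of 17, and groups without a list were not analysed.

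Starts were turned to 1-based. Gene spans and strands came from RefSeq tables (GRCh38.p14) with 27305 of 59679 genes stranded, without exons or genome sequence, so exons, motifs and proteins were not analysed here. Listed genes without a strand in these tables, such as RAVER1 and RBFOX2, have no value. Sites overlapped from 1 nt on the same strand. The fold of a share used genes with at least 20 clusters at 10000000 cells, called past 2-fold. Named genes were the members, 3 genes nearest each by Euclidean distance (pseudocount 0.5), and listed partners, decay factors and markers. The members and lists were chosen with earlier results of these data known. Python 3.11.15 with numpy 2.4.6, pandas 2.3.3, scipy 1.17.1 and matplotlib 3.10.9 was used. Counting and overlap were tested on simulated data, with 0 wrong of 2000 genes and 0 wrong of 3000 sites.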

Additional observations from a re-analysis of the deposited data

How the results depend on the processing

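Of 114 site counts under alternatives 103 stayed within 1.5 times, and of 69 folds of a share 67 stayed on the same side of 2-fold. Counting either strand, or only sites within gene spans as the total, moved no value beyond these limits. The 29 counts on either strand and the 29 by any overlap of 1 nt thus all stayed. The 11 counts that moved came from joining within 10 nt (4 moved, 25 stayed) and from clusters of at least 5 nt (7 moved, 20 stayed). Clusters joined within 10 nt at 10000000 cells numbered 51 in PTBP1, 244 in PTBP2 and 138 in PTBP3, and 248 in PTBP2 at 100000 cells. At 10000 and 1000 cells PTBP2 held 154 and 51 joined clusters, against 202 and 66 before joining, so these 2 counts stayed. Clusters of at least 5 nt numbered 16 in PTBP1 and 47 in PTBP3 at 10000 cells, 42 in PTBP2 at 1000 cells and 13 in PTBP1 for RBFOX2. They numbered 15 in PTBP2 with SpyCatcher1.0 at 20 µg, and 1 and 0 in PTBP3 with SpyCatcher2.0 at 20 and 40 µg. In covered nucleotides, an alternative chosen after seeing the data, the folds of PTBP2 were 1.59 at 10000 cells, 3.13 at 1000 cells, 1.92 for RBFOX2, and 2.28 and 2.04 for SpyCatcher1.0 at 20 and 40 µg. The 2 folds that came below 2 were those of RBFOX2, with 1.56 in PTBP1. Several short clusters lie under 1 wide one in places, and whether this lowers the folds in covered nucleotides was not tested. Against the 100000-cell list the fold of PTBP2 at 10000 cells was 1.59. The last 1000 nt of PTBP1 held 38.0% of its clusters at 10000000 cells. With midpoints within 10 nt, the overlap of PTBP2 with the 10000000-cell list was 65.5% at 100000, 62.9% at 10000 and 59.1% at 1000 cells, and 55.6% for RBFOX2, with 59.1% for RBFOX2 in PTBP1. With 50% of the cluster covered it was 64.5% at 100000 cells. The density of PTBP2 over PTBP3 was 4.74 and that of PTBP1 over PTBP3 5.60 in covered nucleotides, and 2.27 and 2.99 from the listed start of PTBP3, also chosen after seeing the data. By Pearson correlation 2 of the 3 genes named for PTBP1, 0 of those for PTBP2 and 1 of those for PTBP3 were kept.

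No paired analysis was possible because each group has 1 list, and leaving out a replicate was not possible for the same reason. The alternatives that need a genome sequence were not run. The depth of the libraries is unknown, so a missing site in a short list does not show that a contact was absent, and PTBP1 and PTBP3 at 1000 cells and in the SpyCatcher lists rest on 0 to 3 clusters.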
